A study of Drosophila melanogaster with 8 samples.

Results

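The homeotic genes of *Drosophila*, *lab*, *pb*, *Dfd*, *Scr*, *Antp*, *Ubx*, *abd-A* and *Abd-B*, were analyzed in RNA-seq libraries of strains with a deletion in the *U12*, *U6atac* or *Smn* gene. These 8 genes were taken by their symbols and FlyBase identifiers from the 17473 genes of the deposited tables, and all 8 were found. The 8 libraries came from whole larvae, described as L3 at the wandering stage, 2 from the *WT* strain (genotype w1118) and 2 from each strain homozygous for a deletion, of *Smn* (*Smn*Δ/Δ), of *U12* (*U12*Δ/Δ) or of *U6atac* (*U6atac*Δ/Δ). Each library held the RNA of 12 larvae picked at random and pooled, so that a value averages all tissues of these larvae. The deletion strains were made with CRISPR/Cas9 and kept over marked balancer chromosomes, and homozygous larvae lacking the GFP of the balancer were used. U12 and U6atac are snRNAs of the minor spliceosome, which removes a rare class of introns, and SMN is the protein that assembles spliceosomal snRNPs. The comparisons ask how the level of each homeotic gene differed between a strain lacking one of these factors and the *WT*, and among the deletion strains.

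Homeotic genes encode homeodomain transcription factors that give the segments along the body axis their identity. They lie in the Antennapedia complex, with *lab*, *pb*, *Dfd*, *Scr* and *Antp* for the head and thorax, and in the bithorax complex, with *Ubx*, *abd-A* and *Abd-B* for the thorax and abdomen. In the larva they are known to be used in the central nervous system, the imaginal discs and the gut, with Polycomb group proteins keeping them silent and Trithorax group proteins keeping them active.

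All 8 genes lie on chromosome arm 3R of dm6. In the Antennapedia complex, *lab* (FBgn0002522) was at 3R:6661427-6678590 on the minus strand and *pb* (FBgn0051481) at 3R:6707800-6742063 on the minus strand. *Dfd* (FBgn0000439) was at 3R:6791836-6802428 on the plus strand, *Scr* (FBgn0003339) at 3R:6823120-6849981 on the minus strand and *Antp* (FBgn0260642) at 3R:6896253-6999228 on the minus strand. In the bithorax complex, *Ubx* (FBgn0003944) was at 3R:16656623-16734426, *abd-A* (FBgn0000014) at 3R:16807214-16830049 and *Abd-B* (FBgn0000015) at 3R:16927212-16972236, all on the minus strand. They are long genes with little exon. *Ubx* spans 77804 bp, of which 4282 bp are exon by the deposited gene length, and its longest annotated intron is 73651 bp. *Antp* spans 102976 bp with 7508 bp of exon and has the most annotated transcripts, 12, against 1 for *Dfd*.

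The deleted genes were checked first. *Smn* was at 24.7 and 28.3 TPM in the *WT* libraries and at 4.57 and 0.653 TPM in the *Smn* deletion libraries. *snRNA:U12* was at 0 in both *U12* deletion libraries and between 0.0724 and 1.33 TPM in the other 6. The *WT* itself was at only 0.0724 and 0.454 TPM, so this is a weak check. *snRNA:U6atac* was listed at 0 in all 8 libraries, so its deletion could not be checked in these tables. *Smn* was at 200.3 TPM in *U12* deletion library 2, against 9.76 TPM in library 1 of that strain. Markers of the tissues in a whole larva were present, except that the 6 fat body markers summed to 3.89 and 0.507 TPM in the *Smn* deletion and to between 28353 and 116163 TPM in the other libraries. The 6 salivary gland markers summed to 1.06 and 0.872 TPM in the *Smn* deletion and to between 18.3 and 211173 TPM elsewhere. *Lsp1alpha*, *Sgs5*, *Sgs7* and the neuroblast marker *dpn* were at 0 in at least 1 library. The 10 central nervous system markers summed to between 143.5 and 447.1 TPM and the 10 imaginal disc markers to between 25.8 and 564.1 TPM. The study's own staging by RNA-seq put the *Smn* deletion larvae at another point of larval development than the larvae of the other strains, so in every comparison with the *Smn* deletion the stage and the deletion cannot be told apart. Fewer cells of a type and less RNA per cell cannot be told apart in such whole-animal libraries.

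The homeotic genes were expressed at low levels, with marked exceptions in single libraries. TPM corrects read numbers for gene length and scales each library to a sum of 1000000, which puts genes of different length on one scale. In these tables, however, runs of genes listed together moved together between libraries, so that the levels printed here, and comparisons of genes in different runs, may carry what made the runs, which was not tested. The 8 genes together summed to between 22.7 and 29.2 TPM in 5 libraries. The sum was 61.1 TPM in *WT* library 2, 102.8 TPM in *Smn* deletion library 1 and 665.9 TPM in *U12* deletion library 2. In that last library the bithorax complex genes made up 98.3% of the sum, and in *Smn* deletion library 1 they made up 12.9%. Between 4 and 7 of the 8 genes reached 1 TPM in a library. *pb* was the lowest of the 8 in 5 libraries and *Dfd* in the other 3, and *Antp* was the highest in 3.

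**Figure D1:**
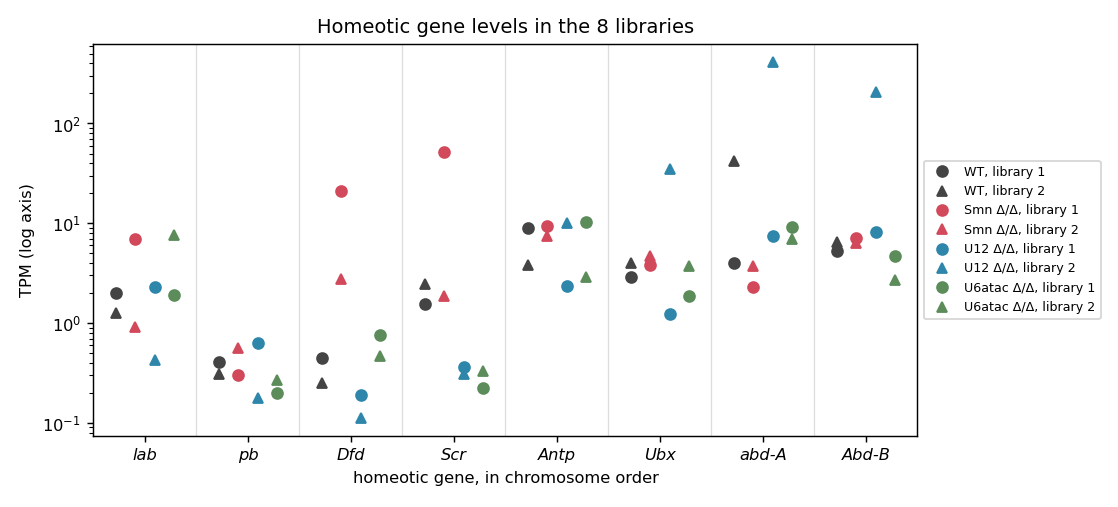
TPM of the 8 homeotic genes in each of the 8 libraries, on a log axis, with genes in their order on the chromosome, colours for strains and circles and triangles for libraries 1 and 2 of a strain. *Dfd* and *Scr* are highest in *Smn* deletion library 1 (20.9 and 51.8 TPM), and *Ubx*, *abd-A* and *Abd-B* in *U12* deletion library 2 (35.2, 414.7 and 204.9 TPM).

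*lab*, which acts in the head and in the copper cells of the larval midgut, was at 2.0 and 1.25 TPM in the *WT*, 7.04 and 0.905 TPM in the *Smn* deletion, 2.29 and 0.430 TPM in the *U12* deletion, and 1.92 and 7.72 TPM in the *U6atac* deletion, for libraries 1 and 2 in that order. It was high in 1 library each of the *Smn* deletion and the *U6atac* deletion, and each strain's range overlapped that of the *WT*. *pb*, needed for the mouthparts, was between 0.177 and 0.633 TPM in all 8 libraries, with a mean of 0.356 TPM. Both *U6atac* deletion libraries, at 0.198 and 0.267 TPM, lay below both *WT* libraries, at 0.404 and 0.308 TPM. The same was seen in 33% of the 11122 genes tested, and these values of *pb* are close to 0. With its mean under 1 TPM, *pb* did not enter the main test. In the fit without a filter its log2 fold changes of (TPM + 1) against the *WT* were 0.071 in the *Smn* deletion, 0.033 in the *U12* deletion and −0.14 in the *U6atac* deletion, each with an SE of 0.18, and the smallest limma adjusted p was 0.88.

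*Dfd*, the selector of the maxillary and mandibular segments, stood out in the *Smn* deletion. It was at 20.9 and 2.79 TPM there, against 0.444 and 0.253 TPM in the *WT*, 0.189 and 0.112 TPM in the *U12* deletion, and 0.754 and 0.468 TPM in the *U6atac* deletion. Both *Smn* deletion libraries were above all 6 others, but they differed from each other 7.49-fold. The share of all genes with both libraries of a strain above all 6 others was not computed, so this is a description only. By mean level the order was the *Smn* deletion, the *U6atac* deletion, *WT* and the *U12* deletion, and no neighbours in it overlapped, although the lowest *U6atac* deletion value (0.468 TPM) was close to the highest *WT* value (0.444 TPM).

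*Scr*, which specifies the labial and the first thoracic segments and the salivary gland, was at 1.54 and 2.48 TPM in the *WT* and at 51.8 and 1.89 TPM in the *Smn* deletion. It was at 0.362 and 0.307 TPM in the *U12* deletion and at 0.223 and 0.330 TPM in the *U6atac* deletion. *Smn* deletion library 2 thus lay between the *WT* libraries while library 1 was 27.5 times higher. All 4 libraries of the *U12* deletion and the *U6atac* deletion lay below both *WT* libraries, and these strains overlapped each other. *Antp*, the selector of the second thoracic segment, had no such library. It was at 9.06 and 3.8 TPM in the *WT*, 9.41 and 7.54 TPM in the *Smn* deletion, 2.34 and 9.98 TPM in the *U12* deletion, and 10.2 and 2.88 TPM in the *U6atac* deletion. All 4 strains overlapped, and the highest of the 8 values was 4.36 times the lowest, against 186.8 times for *Dfd* and 232.6 times for *Scr*.

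*Ubx*, which gives the third thoracic and the first abdominal segments their identity, was at 2.89 and 4.0 TPM in the *WT*, 3.84 and 4.66 TPM in the *Smn* deletion, and 1.89 and 3.70 TPM in the *U6atac* deletion. In the *U12* deletion it was at 1.24 TPM in library 1, the lowest of all, and at 35.2 TPM in library 2, the highest of all. *abd-A*, which acts in the anterior abdomen, was at 4.04 and 42.5 TPM in the *WT*, 2.32 and 3.71 TPM in the *Smn* deletion, 7.53 and 414.7 TPM in the *U12* deletion, and 9.27 and 6.98 TPM in the *U6atac* deletion. The *WT* libraries differed 10.5-fold and the *U12* deletion libraries 55.1-fold, while both *Smn* deletion libraries lay below all 6 others. *Abd-B*, which acts in the posterior abdomen and genitalia, was at 5.28 and 6.53 TPM in the *WT*, 7.09 and 6.37 TPM in the *Smn* deletion, 8.12 and 204.9 TPM in the *U12* deletion, and 4.73 and 2.72 TPM in the *U6atac* deletion. Both *U12* deletion libraries were above all 6 others and both *U6atac* deletion libraries below all 6 others, yet *U12* deletion library 1 exceeded the highest *Smn* deletion value by little, at 8.12 against 7.09 TPM. How many of all genes have a strain above or below all 6 others was not computed, so these orders of *abd-A* and *Abd-B* are descriptions only.

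None of the 7 homeotic genes tested passed a limma adjusted p of 0.05 in any comparison. In the *Smn* deletion against the *WT*, 1.51% of all 11122 genes tested were called, and 0 of the 7. *Dfd* had the largest change, a log2 fold change of 2.76 ± 0.82 (SE, n = 2 per strain, limma adjusted p = 0.18), followed by *Scr* at 2.05 ± 1.16 (limma adjusted p = 0.46) and *abd-A* at −1.91 ± 1.73 (limma adjusted p = 0.66). The other 4 genes lay between 0.17 and 0.59, and the median over all genes was −0.18. *Dfd* and *Scr* averaged 0.370 and 0.874 TPM over the 6 libraries outside the *Smn* deletion and reached the filter of 1 TPM only through that strain, so they had to differ from it to be tested, and counts that include them support nothing. Without a filter their limma adjusted p values were 0.24 and 0.56. By unadjusted p, 1 of the 7 (*Dfd*) was under 0.05, against 13.9% of all genes. *Dfd* was the 1 gene of the 7 with both libraries above the *WT*, a pattern found in 20.4% of all genes, and *abd-A* the 1 with both below, found in 25.6%. The value of *abd-A* rested on *WT* library 2, without which it was −0.35 (limma adjusted p = 0.97). The value of *Scr* rested on *Smn* deletion library 1, and that of *Dfd* did so in part. Without that library the log2 fold changes were 1.5 for *Dfd* and −0.043 for *Scr*, and without library 2 they were 4.03 and 4.15. The fat body and salivary gland markers were low in the same strain, which was also staged apart, and the part of these tissues in these differences was not tested.

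In the *U12* deletion against the *WT*, 0% of all genes were called, and again 0 of the 7. The 3 largest values were those of *Abd-B* at 2.66 ± 1.34 (SE, n = 2 per strain, limma adjusted p = 0.56), *abd-A* at 2.01 ± 1.73 (limma adjusted p = 0.72) and *Scr* at −1.16 ± 1.16 (limma adjusted p = 0.77). *Ubx* was at 1.03, and *lab*, *Dfd* and *Antp* between −0.26 and −0.20. The median of the 7 was −0.20, beside −0.53 over all genes. No homeotic gene had an unadjusted p under 0.05, against 9.44% of all genes. *Abd-B* was the 1 gene of the 7 above both *WT* libraries (10.4% of all genes), and *Dfd* and *Scr* were the 2 below both (31.2% of all genes). The bithorax values rested on *U12* deletion library 2: without it *Ubx* was at −0.98 and *abd-A* at −0.80, and *Abd-B* was at 0.41 (limma adjusted p = 0.93).

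In the *U6atac* deletion against the *WT*, 0% of all genes and 0 of the 7 were called. *Scr* had the largest value, −1.22 ± 1.16 (SE, n = 2 per strain, limma adjusted p = 0.75), followed by *lab* at 0.96 ± 0.92 (limma adjusted p = 0.75) and *abd-A* at −0.71 ± 1.73 (limma adjusted p = 0.93). The other 4 lay between −0.58 and 0.25. The median was −0.26, beside −0.49 over all genes, and 0 had an unadjusted p under 0.05, against 10.3% of all genes. *Dfd* was above both *WT* libraries (11.9% of all genes), and *Scr* and *Abd-B* were below both (33% of all genes). *abd-A* turned to 0.84 without *WT* library 2, and *Abd-B*, at −0.58, to 0.017 under median-ratio scaling of the libraries.

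**Figure D2:**
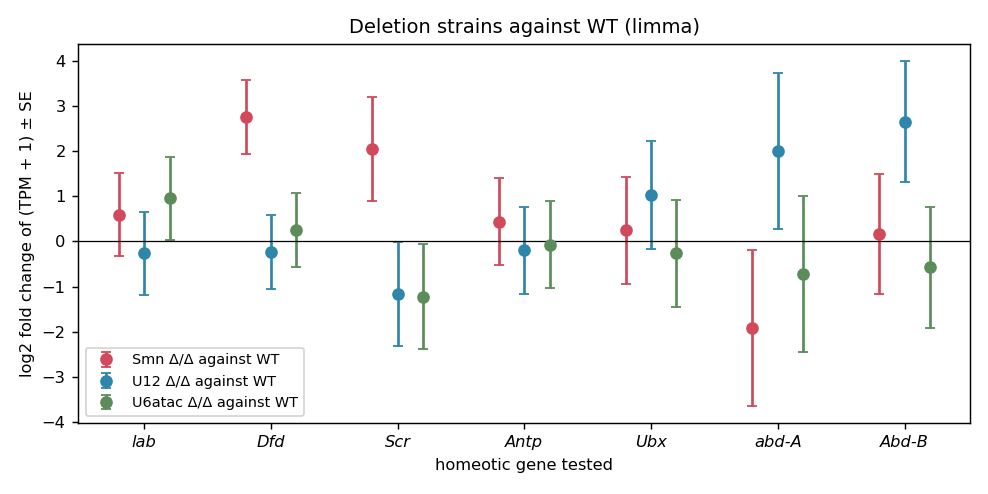
log2 fold change of (TPM + 1), with its limma SE, of the 7 homeotic genes tested in each deletion strain against the *WT*, whose libraries are shared by the 3 comparisons. The points farthest from 0 are *Dfd* in the *Smn* deletion (2.76) and *Abd-B* in the *U12* deletion (2.66), and no gene passed the test.

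Between the deletion strains, 0 of the 7 were called in each of the 3 comparisons. The *U12* deletion against the *Smn* deletion, in which 1.31% of all genes were called, gave −2.99 ± 0.82 for *Dfd* (SE, n = 2 per strain, limma adjusted p = 0.18), −3.21 ± 1.16 for *Scr* (limma adjusted p = 0.34) and 3.91 ± 1.73 for *abd-A* (limma adjusted p = 0.45). These were the 3 of 7 with an unadjusted p under 0.05, against 11% of all genes, but *Dfd* and *Scr* had again entered through the *Smn* deletion alone. *abd-A* and *Abd-B* were above both *Smn* deletion libraries (12.9% of all genes), and *Dfd* and *Scr* below both (29.5% of all genes). *abd-A* rested on *U12* deletion library 2, and without it was at 1.11 (limma adjusted p = 0.84). The *U6atac* deletion against the *Smn* deletion, also with 1.31% of all genes called, gave −2.51 ± 0.82 for *Dfd* (limma adjusted p = 0.26) and −3.28 ± 1.16 for *Scr* (limma adjusted p = 0.30), the 2 of 7 with an unadjusted p under 0.05, against 11.6% of all genes. Both had entered through the *Smn* deletion alone, so this count supports nothing. Here *abd-A* was above both *Smn* deletion libraries (14.6% of all genes), and *Dfd*, *Scr*, *Ubx* and *Abd-B* were below both (30.3% of all genes). In both comparisons the values of *Dfd* and *Scr* rested in part on *Smn* deletion library 1. Without it *Dfd* was at −1.72 and −1.24 and *Scr* at −1.11 and −1.18. Without library 2 *Dfd* was at −4.25 and −3.77 and *Scr* at −5.31 and −5.37. The *U12* deletion against the *U6atac* deletion, with 0% of all genes called, gave 3.23 ± 1.34 for *Abd-B* (limma adjusted p = 0.91), the 1 gene of 7 with an unadjusted p under 0.05, against 5.42% of all genes. *Abd-B* was above both libraries of the other strain (17.3% of all genes) and *Dfd* below both (18.2% of all genes). Without *U12* deletion library 2, *Abd-B* went to 0.98 and *abd-A* from 2.72 to −0.086.

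The libraries in which homeotic genes stood out were next compared with the genes around them, since the tables hold runs of genes that differ together between the libraries of a strain. For each gene the difference between library 1 and library 2 of a strain was set beside the median of the 10 nearest genes in the order of the deposited table, and of the 10 nearest genes along the chromosome arm, among genes with a mean of at least 1 TPM. The table is not in chromosome order throughout. *Dfd* and *Scr* are listed 17 rows apart, and *Ubx*, *Abd-B* and *abd-A* within 21 rows, among their chromosome neighbours, whereas *lab*, *pb* and *Antp* are listed 5546, 4693 and 7379 rows from *Scr*, beside genes of other regions.

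In the *Smn* deletion, *Scr* differed between the libraries by 4.19 on the log2 scale of (TPM + 1), and its 10 table neighbours by a median of 4.16, each of the 10 in the same direction. *Dfd* differed by 2.53 and its table neighbours by a median of 4.94, again all 10 in the same direction. The medians of the chromosome neighbours were 2.27 for *Scr* and 3.10 for *Dfd*, so *Dfd* was nearer to its chromosome neighbours. *Ama*, an immunoglobulin superfamily gene that lies in the same complex but is not homeotic and is listed just before *Dfd*, was at 217.1 TPM in *Smn* deletion library 1 and 6.17 TPM in library 2. *Antp* and *pb*, in the same complex but listed elsewhere, did not follow. *Antp* differed by 0.29 and *pb* by −0.26, nearer to the medians of their table neighbours (0.84 and 0.32) than to those of their chromosome neighbours (3.24 and 3.97). *lab* differed by 2.08, between its table neighbours (0.025) and its chromosome neighbours (4.88). In the *U12* deletion, where *Dfd* was at only 0.189 and 0.112 TPM, it differed by 0.096. Its table neighbours there differed by a median of 2.21 and its chromosome neighbours by 0.060, so *Dfd* did not follow its table neighbours in that strain.

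In the *U12* deletion, *abd-A* differed by −5.61 and its table neighbours by a median of −4.76, and *Abd-B* by −4.50 and its table neighbours by −4.91, with 10 of 10 in the same direction for both. These genes are listed next to each other, so each is among the neighbours of the other. Most of their remaining neighbours are the same genes, so these are not separate results. *Actn3*, listed just before *Abd-B*, was at 1.11 TPM in *U12* deletion library 1 and 66.0 TPM in library 2. *CG5225*, listed just after *abd-A*, differed less, at 0.241 and 1.93 TPM (−1.24 on the log2 scale). *Ubx* went further than the genes beside it, at −4.01 against a median of −0.61, and the run of large differences around *abd-A* and *Abd-B* did not reach the genes next to *Ubx*: *CCT3*, a chaperonin subunit gene, was at 39.8 and 41.1 TPM. The 10.5-fold difference of *abd-A* between the *WT* libraries was also its own. On the log2 scale it was −3.11, against 0.54 for its table neighbours, of which 2 of 10 had the same sign. *Abd-B*, listed next to it, differed by −0.26.

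**Figure D3:**
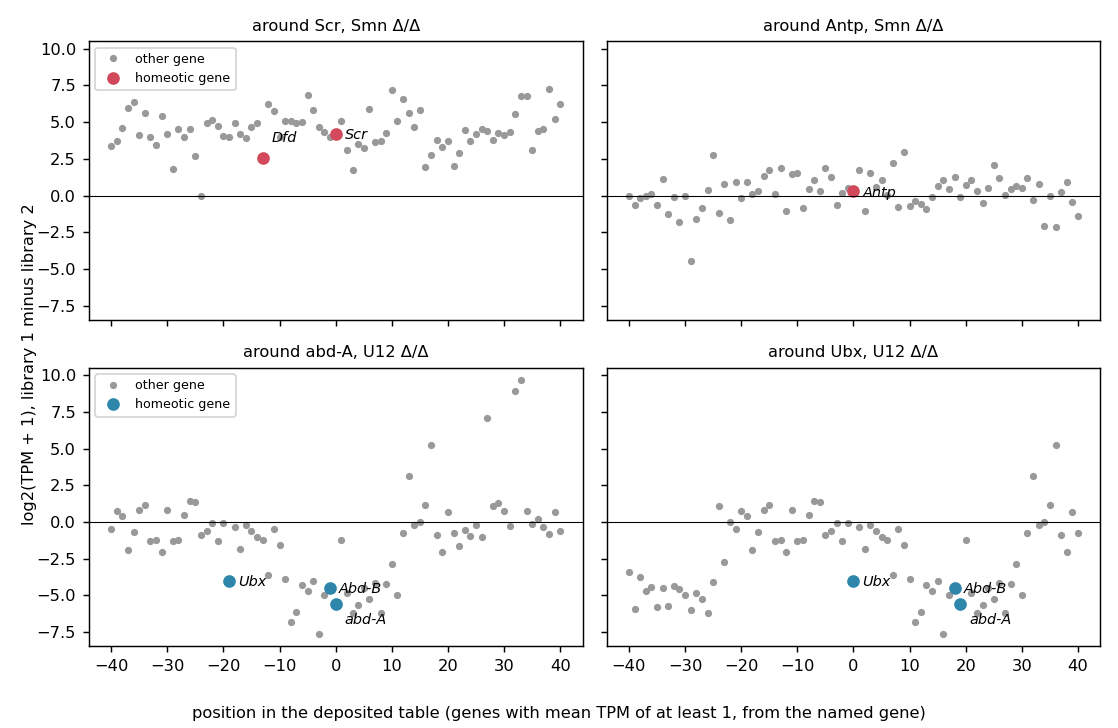
Difference in log2(TPM + 1) between library 1 and library 2, for the 40 genes with a mean of at least 1 TPM listed on each side of *Scr* and *Antp* in the *Smn* deletion and of *abd-A* and *Ubx* in the *U12* deletion, with homeotic genes in colour. *Scr* (4.19) and *abd-A* (−5.61) lie within runs of genes with differences like theirs, *Antp* (0.29) lies among genes around 0, and *Ubx* (−4.01) lies below the genes next to it.

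The same relation was seen over all genes. Across 11084 genes, the difference between the libraries of a strain and the median of the 10 table neighbours had a Pearson's r between 0.56 in the *WT* and 0.63 in the *Smn* deletion. In the 1656 genes with no table neighbour within 1 Mb on the chromosome, r with table neighbours was between 0.35 and 0.60, and r with the nearest genes on the chromosome between −0.0065 and 0.054. These are correlations across genes, which share libraries and are not independent replicates. What gave the tables these runs was not tested.

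**Figure D4:**
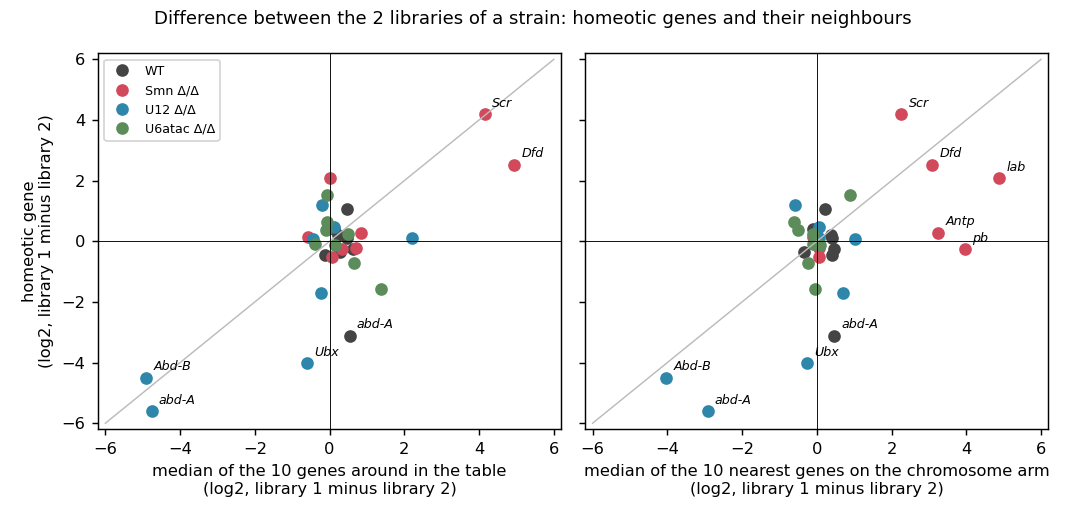
Difference in log2(TPM + 1) between library 1 and library 2 of each strain for the 8 homeotic genes, against the median of the 10 genes around in the table (left) and of the 10 nearest genes on the chromosome arm (right), with the line of equal values. *Scr* in the *Smn* deletion and *abd-A* and *Abd-B* in the *U12* deletion lie near the line on the left, and *Antp* (0.29 against 3.24) and *pb* (−0.26 against 3.97) lie far from it on the right.

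When each gene was set relative to the 10 genes around it with a mean of at least 1 TPM, an alternative chosen after seeing the data, these values shrank. *Scr* in the *Smn* deletion against the *WT* went from 2.05 to −1.08 and *Dfd* from 2.76 to 1.26. *abd-A* in the *U12* deletion went from 2.01 to 0.30 and *Abd-B* from 2.66 to 1.14. The outcome for *Dfd* and *Scr* depended on which neighbours were used. Relative to the 10 genes around with a mean of at least 1 TPM, *Dfd* was at −3.03 and −0.43 in the *Smn* deletion and at −2.84 and −3.14 in the *WT*, with *Smn* deletion library 1 between the *WT* libraries. Relative to any 10 genes around, it was at 3.53 and 1.91 in the *Smn* deletion and at 0.48 and 0.21 in the *WT*, and its log2 fold change was 2.38 (limma adjusted p = 0.19). The median log2(TPM + 1) of any 10 genes around *Dfd* was only 0.92 and 0.0097 in the *Smn* deletion libraries. That of the expressed neighbours was 7.48 and 2.36, so centring on any 10 genes took little from *Dfd*. *Scr* in *Smn* deletion library 1 was the lowest of its 8 values relative to the expressed neighbours, at −2.45, and the highest relative to any neighbours, at 0.60, where its log2 fold change against the *WT* was 0.042. Relative to the expressed neighbours, *abd-A* was at 1.71 and 1.40 in the *U6atac* deletion, 1.46 and 1.98 in the *U12* deletion and −0.29 and 0.068 in the *Smn* deletion, which kept the *Smn* deletion below the other deletion strains, with the *WT* at −0.48 and 3.31 spanning them all.

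**Figure D5:**
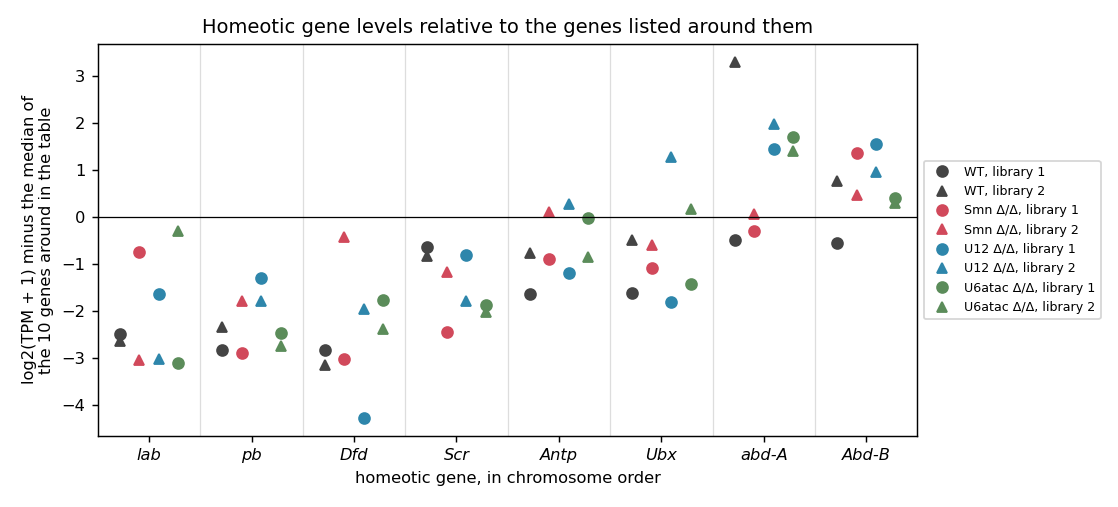
log2(TPM + 1) of each homeotic gene minus the median of the 10 genes listed around it with a mean of at least 1 TPM, for the 8 libraries. The highest point of *abd-A* is *WT* library 2 (3.31), and *Scr* in *Smn* deletion library 1 (−2.45) is the lowest of its 8 values, while relative to any 10 genes around it was the highest (0.60).

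Most other genes of the complexes had low levels. Of 8 listed, *zen*, *zen2*, *bcd*, *ftz*, *lncRNA:bxd* and *lncRNA:iab4* had a mean under 1 TPM, as did *pb* among the homeotic genes. *bcd*, the maternal gene for anterior polarity, and *ftz*, a pair-rule gene, had their highest values in *Smn* deletion library 1, at 2.05 and 0.722 TPM, the library in which *Dfd* and *Scr* were highest. *lncRNA:iab8*, transcribed in the bithorax complex next to *abd-A*, was not among the 40 genes with a mean of at least 1 TPM listed on each side of *abd-A*. It was at 8.03 and 1.06 TPM in the *U12* deletion, 0.283 and 4.43 TPM in the *Smn* deletion, 3.49 and 0.356 TPM in the *WT*, and 0.485 and 0.614 TPM in the *U6atac* deletion. Whether reads were counted by strand is not given in the sources used here, so reads of genes that overlap cannot be told apart. Neither *Ama* nor *lncRNA:iab8*, the 2 tested, was called in any comparison.

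Partners, regulators and targets of the homeotic proteins were compared in the same fit. None of the 6 cofactor genes was called by limma in any comparison, and 1, 2 and 2 had an unadjusted p under 0.05 against the *WT* in the *Smn*, *U12* and *U6atac* deletions, against 13.9%, 9.44% and 10.3% of all genes. Their medians were −0.17, −1.44 and −1.80, beside −0.18, −0.53 and −0.49 over all genes. *disco*, a zinc finger gene that acts with *Dfd* and *Scr* in the head, was at 7.56 and 9.50 TPM in the *WT*, 1.23 and 3.03 TPM in the *Smn* deletion, 0.886 and 0.335 TPM in the *U12* deletion, and 0.263 and 1.16 TPM in the *U6atac* deletion. All 6 libraries of the deletion strains were below both *WT* libraries, with log2 fold changes of −1.66, −2.58 and −2.52 (SE 0.68, limma adjusted p = 0.32, 0.41 and 0.38). Of all genes, 25.6%, 31.2% and 33% were below both *WT* libraries in the *Smn*, *U12* and *U6atac* deletions taken singly. The share below in all of these strains was not computed. *tio*, a relative of the trunk gene *tsh*, was at 13.1 and 12.3 TPM in the *WT* and 11.7 and 13.6 TPM in the *Smn* deletion, but at 2.94 and 2.73 TPM in the *U12* deletion and 1.22 and 1.17 TPM in the *U6atac* deletion. These 4 libraries were below the other 4, with log2 fold changes against the *WT* of −1.83 and −2.64 (SE 0.74, limma adjusted p = 0.51 and 0.38). Below both *WT* libraries in these strains were 31.2% and 33% of all genes, and below both *Smn* deletion libraries 29.5% and 30.3%. *exd*, the homeodomain cofactor of most homeotic proteins, ranged from 6.78 to 197.9 TPM between the *WT* libraries alone.

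Of the 22 Polycomb group genes listed, 21 were in the tables and were tested, and 0 of these 21 and 0 of the 18 Trithorax group genes were called in any comparison. The medians of the Polycomb group against the *WT* were −0.41 in the *Smn* deletion, −1.10 in the *U12* deletion and −1.18 in the *U6atac* deletion, beside −0.18, −0.53 and −0.49 over all genes. Those of the Trithorax group were −0.17, −0.38 and −1.16. By unadjusted p, 1, 3 and 0 Polycomb group genes and 1, 1 and 0 Trithorax group genes were under 0.05 in these comparisons, against 13.9%, 9.44% and 10.3% of all genes. *Su(z)2*, a relative of the Polycomb repressive complex 1 gene *Psc*, was at 148.4 and 21.3 TPM in the *WT* and at 3.37 and 1.97 TPM in the *U12* deletion. It was thus below both *WT* libraries, as were 31.2% of all genes, at a log2 fold change of −4.0 ± 1.33 (limma adjusted p = 0.46). *Su(z)12*, a subunit of Polycomb repressive complex 2, was at 59.1 and 64.3 TPM in the *WT* and at 2.72 and 18.6 TPM in the *Smn* deletion. It was also below both *WT* libraries, as were 25.6% of all genes, at a log2 fold change of −2.87 ± 1.61 (limma adjusted p = 0.46). *Jarid2* and *Scm* had values of −2.94 and −2.73 in the *U12* deletion. In each comparison with the *WT*, 16 of the 21 Polycomb group genes had a negative value, beside 54.8%, 66.1% and 65.4% of all genes in the *Smn*, *U12* and *U6atac* deletions. *ph-p*, a subunit of Polycomb repressive complex 1, was at 5.94 and 1.58 TPM in the *WT* and at 29.5 and 10.6 TPM in the *Smn* deletion. It was above both *WT* libraries, as were 20.4% of all genes, at a log2 fold change of 2.15 ± 0.92 (limma adjusted p = 0.35). *Snr1*, a subunit of the Brahma chromatin remodelling complex, was at 4.04 and 4.96 TPM in the *WT* and at 21.9 and 30.8 TPM in the *Smn* deletion, while the other 4 libraries lay between 3.54 and 7.03 TPM. *Snr1* too was above both *WT* libraries in the *Smn* deletion, as were 20.4% of all genes, at a log2 fold change of 2.30 ± 0.81 (limma adjusted p = 0.26). The share of genes with this strain above all other libraries was not computed. *kto*, a subunit of the Mediator kinase module, was at 166.3 and 150.4 TPM in the *WT* and between 3.18 and 92.8 TPM in the other 6 libraries. Its log2 fold changes in the *Smn*, *U12* and *U6atac* deletions were −3.28, −4.35 and −2.59 (SE 1.59, limma adjusted p = 0.40, 0.48 and 0.59). Of all genes, 25.6%, 31.2% and 33% were below both *WT* libraries in these strains taken singly. The share below in all of these strains was not computed.

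Of 11 genes known as targets of homeotic proteins, 0 were called by limma in any comparison, and 0, 2 and 3 had an unadjusted p under 0.05 against the *WT* in the *Smn*, *U12* and *U6atac* deletions, against 13.9%, 9.44% and 10.3% of all genes. *salm*, a zinc finger gene of wing and trachea, was at 10.6 and 15.3 TPM in the *WT*, 4.61 and 5.30 TPM in the *Smn* deletion, 1.20 and 1.57 TPM in the *U12* deletion, and 0.899 and 1.90 TPM in the *U6atac* deletion. The groups did not overlap except for the *U12* deletion and the *U6atac* deletion, and the log2 fold changes against the *WT* in these were −2.53 and −2.55 (SE 0.71, limma adjusted p = 0.41 and 0.38). In the *Smn*, *U12* and *U6atac* deletions, 25.6%, 31.2% and 33% of all genes were below both *WT* libraries. The share of genes with the whole order of *salm* was not computed. *Dll*, the limb selector that *Ubx* and *abd-A* are known to repress in the embryo, was at 5.25 and 22.0 TPM in the *WT* and between 0.624 and 4.20 TPM in the other 6 libraries. Its log2 fold change in the *U6atac* deletion was −2.72 ± 0.85 (limma adjusted p = 0.38). The shares of all genes below both *WT* libraries are those given for *salm*, and the share below in all of these strains was not computed. *Dll* also belongs to the imaginal disc markers, of which 9, 8 and 9 of 10 had a negative log2 fold change in the *Smn* deletion, the *U12* deletion and the *U6atac* deletion, with 0 called, beside 54.8%, 66.1% and 65.4% of all genes with a negative value. The part of disc tissue in the values of *Dll* was not tested.

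Within the homeotic genes, those listed near each other varied most alike over the 8 libraries. Pearson's r of log2(TPM + 1) was 0.92 between *Dfd* and *Scr*, 0.89 between *Ubx* and *Abd-B*, 0.85 between *abd-A* and *Abd-B* and 0.80 between *Ubx* and *abd-A*. Between *Scr* and *Antp*, neighbours on the chromosome but 7379 rows apart in the table, it was 0.29. The points of these correlations are the same 8 libraries, and the genes of a pair also share their runs in the table. The genes whose levels were most like the mean of the Antennapedia complex genes were *CG30413*, *CG14326* and *CG32945* (r = 0.98 each), and those most like the mean of the bithorax complex genes were *CG9593*, *CG13073* and *CG5265* (r = 0.99, 0.99 and 0.98). *CG5265* is listed 11 rows from a homeotic gene, *CG14326* 51 rows and *CG9593* 100 rows, and the other 3 are at least 1051 rows away, and *CG13073* and *CG30413* lie on other chromosome arms.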

How the data were processed

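The authors trimmed the reads, mapped them to dm6, and deposited TPM per gene and library. The submitters' processing notes name TopHat2 and featureCounts, and the tool that computed TPM is not given in the sources used here. TPM keep no read depth, so no counting interval was computed. Libraries were grouped by labelled genotype. log2(TPM + 1) of 11122 genes with a mean of at least 1 TPM was fitted with limma 3.58.1 in R 4.3.3 (4 strains in one fit, eBayes with a trend, 6 comparisons), with Benjamini-Hochberg adjustment over all genes tested and a threshold of 0.05. The step was tested on simulated data in which genes were drawn independently of each other. Runs of genes that move together were not simulated, so that test does not cover them. Members and gene lists were chosen with earlier results of these data known. The rule named the 8 homeotic genes, per list and comparison the genes called (at most 4) or else up to 3 with the largest changes, the 3 genes most like each complex, and the genes listed just before and after a member. *Lsp1alpha*, *Sgs5*, *Sgs7*, *dpn*, *bcd*, *ftz*, *zen*, *zen2*, *lncRNA:bxd* and *lncRNA:iab4* were chosen after their values were seen. Symbols and gene models are Ensembl's (BDGP6), whose coordinates match the tables for 17217 of 17473 genes. Python 3.11.15 with pandas 2.3.3 served for the remaining values. Alternatives were other pseudocounts, filters, scalings and fits, centring on table neighbours, and leaving out each library. Replicate numbers were not treated as pairs, because the correlation of the deviations of equally numbered libraries was −0.021 to 0.11 over genes.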

Additional observations from a re-analysis of the deposited data

How the results depend on the processing

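The homeotic genes passed the threshold in no comparison under any of the 10 alternatives other than leaving out a library. With each library left out, calls were limited to *Dfd* and *Scr* in the comparisons with the *Smn* deletion, without library 2 of that strain. Such a fit leaves 1 library, whose spread is assumed to be that of the other strains. Both genes had entered the test only through the *Smn* deletion, so these calls support nothing. Of 408 log2 fold changes of homeotic genes under the other alternatives, 381 kept their direction and side of the threshold and 27 changed sign, none of them past the threshold. The cause of these changes was not tested.

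Under median-ratio scaling, the *U12* deletion against the *WT* gave 0.19 for *lab* and 0.40 for *Antp*, and the *U6atac* deletion against the *WT* gave 0.54 for *Antp*, 0.27 for *Ubx* and 0.017 for *Abd-B*. Under quantile normalization these were 0.37 and 0.38, with 0.070 for *Dfd*, and 0.52, 0.39 and 0.055. Centred on any 10 genes around in the table, the *U12* deletion gave 0.069 for *lab* and 0.80 for *Antp*, and the *U6atac* deletion gave 0.25 for *Antp*, 0.14 for *abd-A* and 0.38 for *Abd-B*, while *Antp* was at 0.45 in the *U12* deletion against the *Smn* deletion and at 0.55 against the *U6atac* deletion. Centred on the 10 around with a mean of at least 1 TPM, the *U12* deletion against the *WT* gave 0.23 for *lab* and 0.74 for *Antp*, and the *U6atac* deletion gave 0.77 for *Antp*, 0.42 for *Ubx*, 0.14 for *abd-A* and 0.23 for *Abd-B*. *Scr* was then at −1.08 in the *Smn* deletion against the *WT* and at 0.52 in the *U12* deletion against the *Smn* deletion, and *Ubx* at 0.20 in the *U6atac* deletion against the *Smn* deletion.

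With each library left out, the changes that turned sign ranged as follows. In the *Smn* deletion against the *WT* they were −0.093 to 0.98 for *Antp*, −0.043 to 4.15 for *Scr* and −0.45 to 1.63 for *lab*. In the *U12* deletion against the *WT* they were −1.06 to 0.66 for *Antp*, −0.98 to 3.04 for *Ubx*, −0.80 to 4.81 for *abd-A* and −0.86 to 0.34 for *lab*. In the *U6atac* deletion against the *WT* they were −0.84 to 0.69 for *Antp*, −0.61 to 0.089 for *Ubx* and −2.26 to 0.84 for *abd-A*. In the *U12* deletion against the *Smn* deletion they were −1.5 to 0.22 for *Antp*, −1.22 to 2.79 for *Ubx* and −1.89 to 0.19 for *lab*. In the *U6atac* deletion against the *Smn* deletion they were −1.28 to 0.25 for *Antp* and −0.67 to 1.41 for *lab*. In the *U12* deletion against the *U6atac* deletion they were −0.98 to 0.74 for *Antp*, −0.71 to 3.30 for *Ubx* and −0.086 to 5.52 for *abd-A*.

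Over all genes, the *Smn* deletion against the *WT* called 168 genes in the fit reported, 285 without a filter, 89 with a mean of at least 5 TPM, 40 with only the 4 libraries compared, 90 without a trend, 330 and 311 when centred on any and on expressed neighbours, and between 95 and 237 with each library left out. The *U12* deletion and the *U6atac* deletion against the *WT* called 42 and 43 genes without a filter, and between 0 and 70 and between 0 and 73 with each library left out. The *U12* deletion against the *Smn* deletion called 81 genes at a mean of at least 5 TPM, 0 with only the 4 libraries and 97 without a trend, and between 25 and 276 with each library left out, and the *U6atac* deletion against the *Smn* deletion 85, 0 and, with each library left out, between 29 and 261. In a fit that kept same-numbered libraries together (a replicate block), 149, 137 and 142 genes were called in the 3 comparisons with the *Smn* deletion, and 0 homeotic genes in all 6. The mean TPM of a homeotic gene in a strain moved by less than its SD in 26 of 32 cases under median-ratio scaling, and the place of a strain in the order of a gene stayed the same in 18 of 32 cases, and in 16 of 32 by percentile rank within the library.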
